A study of Arabidopsis thaliana with 9 samples.

Results

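The nuclear genes for subunits of photosystem I and photosystem II, for their light-harvesting antennae, for the soluble electron carriers and for the plastid ATP synthase were followed in Arabidopsis thaliana seedlings. The set was chosen with earlier results of these data known. It holds 39 loci, listed by function and not by measured value, of 34212 genes with transcript values. Of these, 38 had values, and ATPC1 (AT4G04640), which encodes the gamma subunit of the ATP synthase, was not analysed here. The 38 genes comprise 12 photosystem I subunits, 10 photosystem II subunits, 4 antenna proteins of photosystem I (LHCI), 4 minor antenna proteins of photosystem II, 6 electron carriers and 2 ATP synthase subunits. All 38 passed the filter for testing, a mean of at least 1 TPM (the share of a transcript in all transcripts, scaled to a fixed total).

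The groups were prp39a seedlings (allele prp39a-3, line SAIL_1249A03), smd1b seedlings (allele smd1b-3) and wild-type seedlings of accession Col-0, each with 3 libraries from independent biological replicates. All were whole seedlings harvested at 14 days on half-strength MS medium, and polyadenylated RNA was sequenced. PRP39a is a protein of the U1 small nuclear ribonucleoprotein, which recognises 5′ splice sites. SmD1b belongs to the Sm ring at the core of spliceosomal ribonucleoproteins. Each mutant is represented by 1 allele. PRP39A had 5.44, 5.48 and 5.58 TPM in prp39a against 48.5, 55.1 and 49.98 TPM in wild type, and SMD1B was listed at 0, 0.138 and 0 TPM in smd1b against 53.1, 53.6 and 50.3 TPM in wild type.

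In the thylakoid membrane, photosystem II splits water at a lumenal manganese cluster and passes electrons through plastoquinone to the cytochrome b6f complex. Plastocyanin carries them on to photosystem I, from which ferredoxin and ferredoxin-NADP reductase (FNR) deliver them to NADP, while the proton gradient drives the ATP synthase. The reaction-centre cores are encoded in the plastid, whereas most peripheral subunits, the antennae and the soluble carriers are encoded in the nucleus and imported. Their transcripts are among the most abundant in green tissue.

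The 250 bases upstream of each annotated gene start were read from the RefSeq assembly TAIR10.1, and 5 of them are shown because they belong to the genes on which the results turn or carry the light-responsive motifs of the set. PSBS (chr1:16869971-16870220, plus strand), FNR2 (chr1:6942375-6942624, plus strand) and ATPD (chr4:6100464-6100713, plus strand) are the genes that differed between the mutants. LHCA4 (chr3:17495034-17495283, minus strand) had the highest transcript level, and PSBQ2 (chr4:2673244-2673493, minus strand) holds the most motif matches of the 5 windows shown. Capitals mark CACGTG (the G-box), GATAAG (the core of the I-box), CCAATC and TATAAA, each searched on both strands, and no matches overlap in these windows.
PSBS: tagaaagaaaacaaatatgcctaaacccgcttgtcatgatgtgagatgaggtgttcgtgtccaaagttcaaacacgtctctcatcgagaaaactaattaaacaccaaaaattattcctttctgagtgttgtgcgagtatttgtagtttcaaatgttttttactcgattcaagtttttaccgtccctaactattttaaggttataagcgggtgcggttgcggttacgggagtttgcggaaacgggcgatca
FNR2: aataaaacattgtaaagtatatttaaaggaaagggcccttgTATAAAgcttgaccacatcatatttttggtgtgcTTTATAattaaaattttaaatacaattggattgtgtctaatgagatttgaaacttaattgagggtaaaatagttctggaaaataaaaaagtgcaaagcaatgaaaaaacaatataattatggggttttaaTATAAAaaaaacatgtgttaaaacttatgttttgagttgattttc
ATPD: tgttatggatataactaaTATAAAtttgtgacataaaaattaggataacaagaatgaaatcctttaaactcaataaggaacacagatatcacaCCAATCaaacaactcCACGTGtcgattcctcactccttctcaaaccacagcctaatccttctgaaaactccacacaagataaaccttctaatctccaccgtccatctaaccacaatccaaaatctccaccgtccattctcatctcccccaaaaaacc
LHCA4: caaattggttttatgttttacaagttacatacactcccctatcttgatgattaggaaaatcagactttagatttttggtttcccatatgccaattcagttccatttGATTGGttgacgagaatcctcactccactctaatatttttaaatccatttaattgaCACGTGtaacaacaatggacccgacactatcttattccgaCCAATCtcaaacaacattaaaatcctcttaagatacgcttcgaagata
PSBQ2: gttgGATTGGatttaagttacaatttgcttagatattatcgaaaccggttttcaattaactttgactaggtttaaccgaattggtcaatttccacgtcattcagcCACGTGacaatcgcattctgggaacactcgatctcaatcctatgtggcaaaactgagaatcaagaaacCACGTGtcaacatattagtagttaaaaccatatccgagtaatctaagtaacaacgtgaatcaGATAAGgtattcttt
The PSBS window holds none of the 4 motifs, and the FNR2 window holds TATAAA alone, 209, 175 and 45 bases before the gene start. The ATPD window has TATAAA at 232, CCAATC at 157 and the G-box at 142 bases before the start, and overlaps the annotated protein-coding gene AT4G09649. The LHCA4 window has CCAATC at 144 and 48 and the G-box at 88 bases before the start. The PSBQ2 window has CCAATC at 246, G-boxes at 145 and 77 and the I-box core at 15 bases before the start.

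The G-box lay in the window of 8 of the 38 genes (21.1%), against 7.25% of the 19698 protein-coding genes tested. The I-box core lay in 12 windows (31.6%, against 12.3%), CCAATC in 9 (23.7%, against 10.4%) and TATAAA in 19 (50%, against 46.2%). These are counts of letters in a fixed window and name no bound factor. The genes are compact: their median number of introns was 2, against 4 for the tested protein-coding genes, and 9 of 38 (23.7%) had no intron, against 15.3%. They lie on all 5 chromosomes, with 16, 3, 6, 9 and 4 genes on chromosomes 1 to 5.

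The transcripts were abundant in all 3 genotypes. LHCA4, an antenna protein of photosystem I, had rank 4 among all genes, with a mean of 6259 TPM over the 9 libraries. PETE1, the minor plastocyanin gene, was the lowest of the 38 at 299 TPM and rank 399, so that levels spanned 20.9-fold. Of the 38 genes, 32 were among the 100 most abundant and 36 among the 200 most abundant. TPM is a value per transcript length, so levels of different genes can be set side by side. The ratio of highest to lowest gene was 14.0 among the photosystem II subunits and 10.5 among the electron carriers. It was 2.998 among the photosystem I subunits, 1.80 among the minor antennae, 1.62 among the LHCI genes and 1.48 between the ATP synthase subunits.

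The 38 genes together made up 101131, 99309 and 89605 TPM in prp39a, 85214, 93620 and 87260 TPM in smd1b, and 97116, 84269 and 95179 TPM in wild type. The ranges of the 3 genotypes overlap. The sums correspond to between 8.43% and 10.11% of all TPM. In bulk tissue, fewer green cells and less RNA per green cell cannot be told apart.

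**Figure D1:**
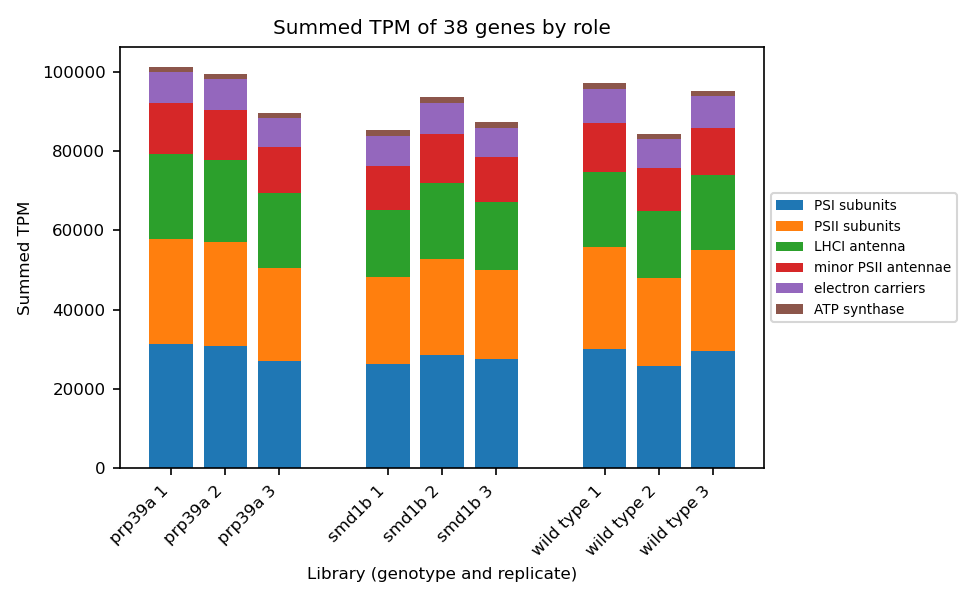
Summed TPM of the 38 genes (vertical axis) in each of the 9 libraries, stacked by role. The tallest bar is prp39a replicate 1 at 101131 TPM, the shortest is wild-type replicate 2 at 84269 TPM, and the 3 genotypes overlap.

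Within a genotype the genes moved together from library to library. Wild-type replicate 2 was the lowest wild-type library for 38 of 38 genes, whereas it was the lowest for 18.7% of all genes tested. In prp39a, replicate 3 was lowest for 35 of 38 (17.1% of all genes). In smd1b, replicate 2 was highest for 30 of 38 (23.3% of all genes). Replicate 1 was lowest for 23 (30.7% of all genes) and replicate 3 for 15 (22.9%), a less uniform order than in the other genotypes. The median offset from the group mean was −0.10 on the log2 scale in prp39a replicate 3 and −0.12 in wild-type replicate 2.

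Root markers varied in the same libraries. The summed level of the 9 root markers, of which 7 passed the filter, was 2278, 1999 and 2604 TPM in prp39a, 3574, 2762 and 3248 TPM in smd1b, and 3133, 3484 and 2695 TPM in wild type. Nearly all of it came from PYK10, a root beta-glucosidase. The markers that did not pass, NRT2.1 and IRT1, averaged under 1 TPM, and IRT1 was listed at 0 in prp39a replicate 2 and smd1b replicates 2 and 3. CASP1, which marks the root endodermis, had 35.3, 27.9 and 81.1 TPM in prp39a, 49.7, 26.3 and 45.3 TPM in smd1b, and 39.3, 80.7 and 34.9 TPM in wild type. The highest root sum of each genotype was thus in prp39a replicate 3, smd1b replicate 1 and wild-type replicate 2, the libraries in which the photosynthesis transcripts were most often lowest. The root sums of prp39a lay below those of smd1b and of wild type without overlap. The single markers did not all follow PYK10. In prp39a against smd1b, 3 of the 7 tested markers were above 0 and 4 below (median log2 fold change −0.001). In prp39a against wild type, 1 was above 0 and 6 below (median −0.20). The part of tissue proportions in the results below was not tested.

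**Figure D2:**
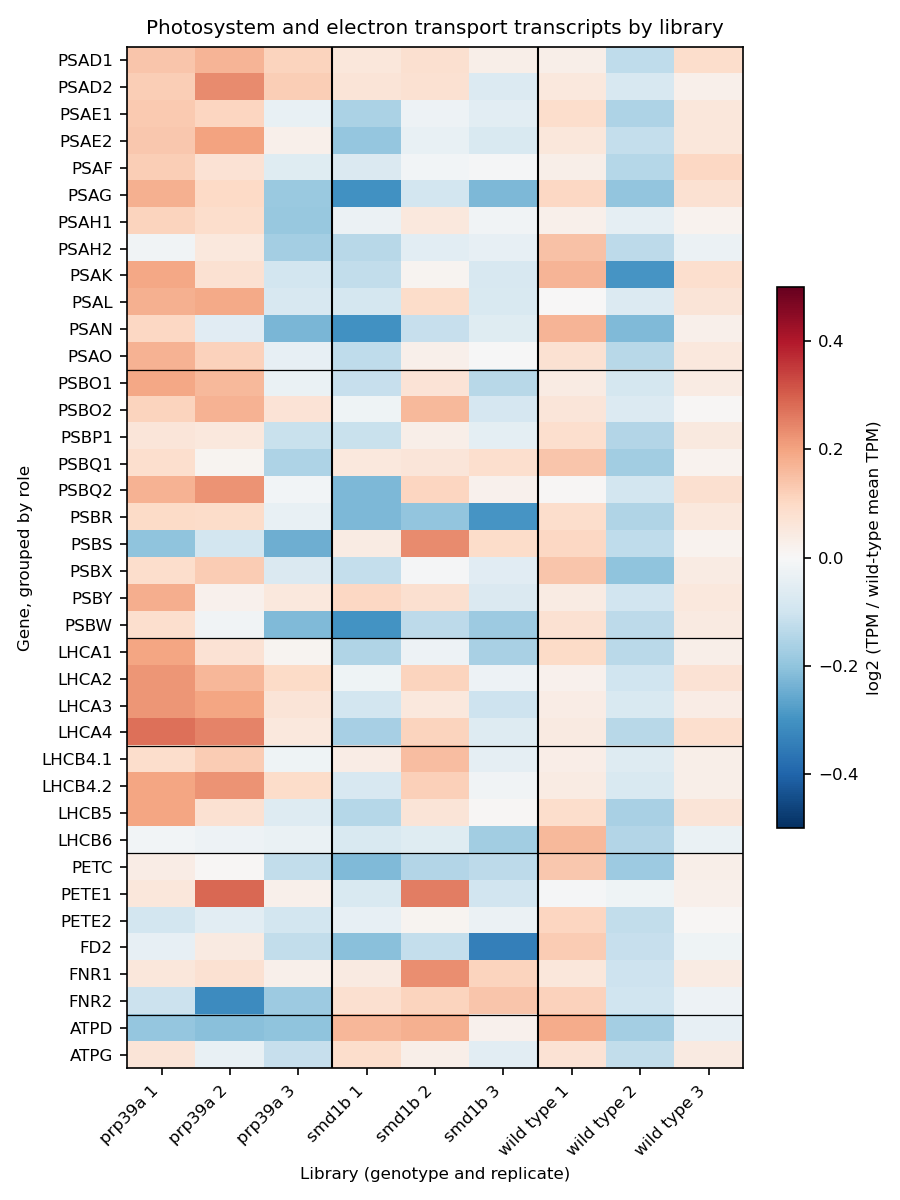
Log2 ratio of each gene's TPM to its wild-type mean (colour) for 38 genes grouped by role (rows) in 9 libraries (columns). Wild-type replicate 2 is below the wild-type mean in all 38 rows, and the offsets of single libraries are of the same size as the differences between genotypes.

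The comparison of prp39a with wild type asks how these transcripts stand in the line that lacks most PRP39A transcript. None of the 38 genes passed the test, which was limma on log2(TPM + 0.5) over all 20585 genes with a Benjamini-Hochberg adjusted p threshold of 0.05, while 4.13% of all genes did (1.73% higher and 2.39% lower). Without adjustment, FNR2 alone had a p under 0.05, as did 23.7% of all genes. Log2 fold changes ran between −0.20 for FNR2 and 0.20 for LHCA4, and their 95% intervals between −0.40 and 0.46. The median was 0.06 for the 38 genes and −0.07 for all genes, with 26 genes above 0 and 12 below (7268 and 13317 of all genes). The 38 genes moved together between libraries, so their signs are not separate observations. These medians and counts depend on the scaling of the libraries. With median-ratio size factors, LHCB1.4, an antenna gene outside the set, had a log2 fold change of 0.72 in place of 0.64. All 3 prp39a libraries were above all 3 wild-type libraries for 6 genes (15.8%, against 9.42% of all genes), namely PSAD1, PSAD2, PSBO2, LHCA2, LHCA3 and LHCB4.2. They were below for FNR2 and ATPD (5.26%, against 18.6%). The change was smaller than the range of the 3 wild-type libraries for 34 of the 38 genes. This was not counted for all genes. Wild-type replicate 2 sets the lower end of the range in all 38 genes, so these are not separate observations.

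The comparison of smd1b with wild type asks the same of the line in which SMD1B transcript was at or near 0. None of the 38 genes passed the limma test, against 6.63% of all genes (3.57% higher and 3.06% lower). Without adjustment, PSBR and FD2 had a p under 0.05, as did 23.4% of all genes. Log2 fold changes ran between −0.23 for PSBR and 0.13 for FNR1, with 95% intervals between −0.49 and 0.34. The median was −0.03 for the 38 genes and 0.02 for all genes, with 15 genes above 0 and 23 below (11003 and 9582 of all genes). No gene had all 3 smd1b libraries above wild type (against 17% of all genes). All 3 were below for PSBR, PSBW and FD2 (7.89%, against 13.3%). The change was smaller than the range of the 3 wild-type libraries for all 38 genes, a count with the same limits as in prp39a. PSAD1 lies 34354 bases from SMD1B on chromosome 4, and its level is given with the photosystem I subunits below. The 3 wild-type libraries are shared by both comparisons, so the fold changes against wild type are not independent.

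The comparison of prp39a with smd1b asks whether the mutants differ from each other. PSBS, FNR2 and ATPD were lower in prp39a, and no gene was higher. The 3 genes are 7.89% of the 38, against 21.1% of all genes, of which 14.7% were lower and 6.39% higher. With TPM rescaled by median-ratio size factors, 2191 of all genes were higher and 2029 lower, in place of 1316 and 3020. Without adjustment, PSBR and PSAE2 joined them with a p under 0.05, which makes 5 genes, and 36.7% of all genes had such a p. The median log2 fold change was 0.10 for the 38 genes and −0.08 for all genes. Of the 38 genes, 31 were above 0 and 7 below (7819 and 12766 of all genes). As these genes moved together between libraries, the 31 are not separate observations. All 3 prp39a libraries were above all 3 smd1b libraries for 8 genes (21.1%, against 12.5% of all genes). They were below for PSBS, PETE2, FNR2 and ATPD (10.5%, against 27.2%).

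**Figure D3:**
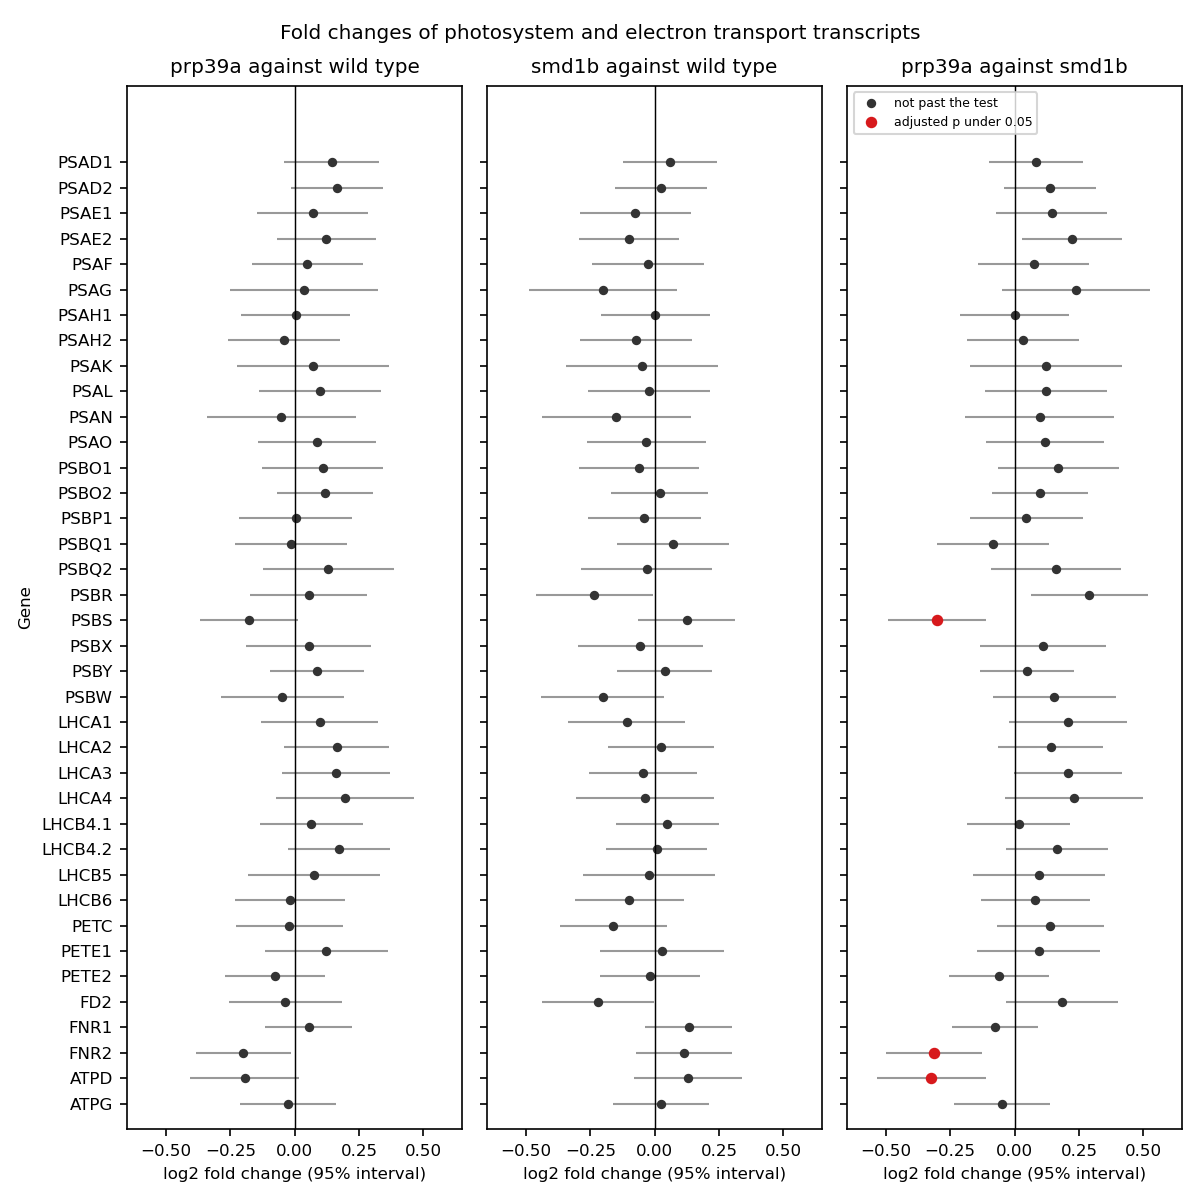
Log2 fold change (horizontal axis) with its 95% interval for 38 genes in the 3 comparisons, from limma on log2(TPM + 0.5). Red points passed an adjusted p of 0.05: none against wild type, and PSBS, FNR2 and ATPD, all below 0, between prp39a and smd1b.

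PSBS (AT1G44575) senses the acidity of the lumen and is needed for the rapid component of non-photochemical quenching. In TAIR10.1 the gene lies at chr1:16870221-16873427 on the plus strand and has 4 introns. It had 337, 364 and 328 TPM in prp39a, 399, 457 and 413 TPM in smd1b, and 417, 355 and 392 TPM in wild type. The prp39a libraries lie below all smd1b libraries, and the wild-type libraries overlap both. The log2 difference of prp39a from smd1b was −0.30 ± 0.084 (SE; limma adjusted p = 0.0342), so prp39a had 81.1% of the smd1b level. Against wild type the log2 fold change was −0.18 in prp39a (limma adjusted p = 0.239) and 0.12 in smd1b (0.415).

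FNR2 (AT1G20020) is a leaf isoform of the reductase that passes electrons from ferredoxin to NADP. It lies at chr1:6942625-6945091 and has 8 introns. It had 815, 706 and 776 TPM in prp39a, 930, 951 and 969 TPM in smd1b, and 952, 821 and 864 TPM in wild type. Every prp39a library was below every library of the other genotypes. The log2 difference of prp39a from smd1b was −0.31 ± 0.082 (SE; limma adjusted p = 0.0281), or 80.5% of the smd1b level. The log2 fold change against wild type was −0.20 in prp39a (limma adjusted p = 0.184) and 0.11 in smd1b (0.449).

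ATPD (AT4G09650) encodes the delta subunit, which joins the membrane and stromal parts of the plastid ATP synthase. It lies at chr4:6100714-6101864 and has no intron. It had 491, 486 and 489 TPM in prp39a, 631, 636 and 571 TPM in smd1b, and 639.9, 500.1 and 547 TPM in wild type. The prp39a libraries are nearly level and below all others, while the wild-type libraries spread over 1.28-fold. The log2 difference of prp39a from smd1b was −0.32 ± 0.093 (SE; limma adjusted p = 0.0384), or 79.9% of the smd1b level. Against wild type it was −0.19 in prp39a (limma adjusted p = 0.243) and 0.13 in smd1b (0.449).

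In all 3 genes the wild-type mean lay between the means of the mutants, and neither mutant passed the test against wild type. Each call was lost when certain single libraries were left out. PSBS was not called without prp39a replicate 1 or 3, smd1b replicate 2 or 3, or wild-type replicate 3 (limma adjusted p between 0.0523 and 0.0971). FNR2 was not called without prp39a replicate 2 or any smd1b replicate (limma adjusted p between 0.0591 and 0.0955). ATPD was not called without any 1 of the prp39a or smd1b replicates or wild-type replicate 3 (limma adjusted p between 0.0567 and 0.106). Under median-ratio size factors the limma adjusted p was 0.20 for PSBS, 0.117 for FNR2 and 0.161 for ATPD.

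**Figure D4:**
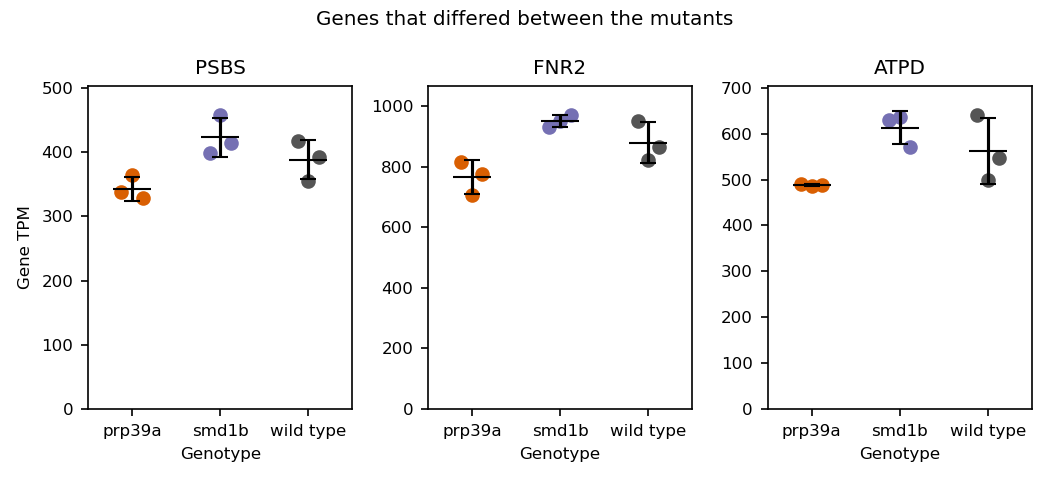
TPM (vertical axis) of PSBS, FNR2 and ATPD in the 3 libraries of each genotype (points), with the mean and SD (bars). The prp39a points are below all smd1b points in each panel, and the wild-type points overlap the smd1b points.

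Among the photosystem I subunits, 12 of 12 were measured and none passed a test. PSAD1 (AT4G02770) and PSAD2 (AT1G03130) encode the stromal subunit that docks ferredoxin. PSAD1 had 2309, 2357 and 2266 TPM in prp39a, 2183, 2217 and 2139 TPM in smd1b, and 2141, 1919 and 2228 TPM in wild type. PSAD2 had 1554, 1680.0 and 1553 TPM in prp39a, 1490.3, 1502 and 1358 TPM in smd1b, and 1479.9, 1347 and 1449 TPM in wild type. For both genes the prp39a libraries were the highest, and PSAD2 had the smallest p of the photosystem I genes in prp39a against wild type (log2 fold change 0.16, limma adjusted p = 0.249).

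PSAE1 (AT4G28750) and PSAE2 (AT2G20260) encode another stromal subunit, PSAE, and PSAE2 had the lowest level of the photosystem I group. PSAE1 had 2602, 2561 and 2316 TPM in prp39a, 2133, 2337 and 2294 TPM in smd1b, and 2525, 2136 and 2476 TPM in wild type. PSAE2 had 1342, 1407 and 1244 TPM in prp39a, 1069, 1191 and 1161 TPM in smd1b, and 1271, 1127 and 1271 TPM in wild type. PSAE2 was higher in every prp39a library than in any smd1b library, though the difference did not pass (0.22 on the log2 scale, limma adjusted p = 0.0942).

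PSAH1 (AT3G16140) and PSAH2 (AT1G52230) encode a subunit at which mobile antenna docks in state transitions. PSAH1 had 1997, 1963 and 1621 TPM in prp39a, 1812, 1916 and 1828 TPM in smd1b, and 1882, 1793 and 1869 TPM in wild type. PSAH2 had 1709, 1797 and 1540.1 TPM in prp39a, 1574, 1671 and 1684 TPM in smd1b, and 1917, 1582 and 1694 TPM in wild type. All genotypes overlap in both genes, and the PSAH1 means were nearly equal at 1860.4 TPM in prp39a, 1852 TPM in smd1b and 1848 TPM in wild type.

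PSAG (AT1G55670), a subunit on the antenna side of photosystem I, had the smallest p of its group in smd1b against wild type. It had 3442, 3262 and 2675 TPM in prp39a, 2464, 2855 and 2605 TPM in smd1b, and 3266, 2653 and 3211 TPM in wild type. The smd1b and wild-type libraries overlap (log2 fold change −0.20, limma adjusted p = 0.384). PSAL (AT4G12800), which holds PSAH in place, was the highest of the group with 4093, 4129.9 and 3431 TPM in prp39a, 3410.1, 3860.2 and 3432 TPM in smd1b, and 3624, 3456 and 3788 TPM in wild type. PSAF (AT1G31330), the plastocyanin docking subunit, and the peripheral subunits PSAK (AT1G30380), PSAN (AT5G64040) and PSAO (AT1G08380) had log2 fold changes against wild type between −0.05 and 0.09 in prp39a and between −0.15 and −0.03 in smd1b.

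Of the 10 photosystem II genes, PSBS alone passed a test. PSBO1 (AT5G66570) and PSBO2 (AT3G50820) encode the manganese-stabilising protein of the oxygen-evolving complex. PSBO1 had 4726, 4619.9 and 4035 TPM in prp39a, 3807, 4329.7 and 3752 TPM in smd1b, and 4252, 3882 and 4252 TPM in wild type. PSBO2 had 1022, 1068 and 992 TPM in prp39a, 933, 1060.3 and 893 TPM in smd1b, and 987, 904 and 951 TPM in wild type. The genotypes overlap in PSBO1, and in PSBO2 the prp39a libraries lie above wild type by a small step (log2 fold change 0.12, limma adjusted p = 0.415).

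PSBQ1 (AT4G21280) and PSBQ2 (AT4G05180) encode another extrinsic protein of that complex. PSBQ1 had 1030.3, 984 and 874 TPM in prp39a, 1009, 1014 and 1032 TPM in smd1b, and 1071, 862 and 986 TPM in wild type. PSBQ2 had 3097, 3202 and 2717 TPM in prp39a, 2347, 2952 and 2784 TPM in smd1b, and 2754, 2574 and 2901 TPM in wild type. Both overlap between all genotypes.

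PSBR (AT1G79040), which sits next to the oxygen-evolving complex, was the most abundant photosystem II transcript. It had 5979, 5973 and 5463 TPM in prp39a, 4790.4, 4886 and 4568 TPM in smd1b, and 5944, 5041 and 5811 TPM in wild type. Every smd1b library was below every library of the other genotypes. The log2 fold change was −0.23 ± 0.10 in smd1b against wild type (SE; limma adjusted p = 0.201) and 0.29 ± 0.10 in prp39a against smd1b (0.0707), so neither passed. The difference between the mutants passed under 2 alternatives, a filter of 5 TPM (limma adjusted p = 0.0461) and a variance prior without trend (0.0415).

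PSBP1 (AT1G06680), the third extrinsic protein, and the small subunits PSBX (AT2G06520) and PSBY (AT1G67740) had log2 fold changes against wild type of 0.00 to 0.09 in prp39a and −0.06 to 0.04 in smd1b. PSBW (AT2G30570), another small subunit, averaged 2627 ± 277 TPM in prp39a, 2356 ± 138 TPM in smd1b and 2711 ± 204 TPM in wild type (SD, n = 3 each). Its smd1b libraries lay below all wild-type libraries (log2 fold change −0.20, limma adjusted p = 0.293).

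The 4 LHCI genes encode the antenna of photosystem I, and all had positive fold changes in prp39a against wild type, of which none passed. Their sum was 21414, 20608 and 18907 TPM in prp39a, 16815, 19062 and 17124 TPM in smd1b, and 18876, 16817 and 18946 TPM in wild type. Prp39a replicate 3 falls within the range of the other genotypes, which overlap each other.

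LHCA1 (AT3G54890) had 5262, 4830.0 and 4643 TPM in prp39a, 4143, 4507 and 4108 TPM in smd1b, and 4907, 4188 and 4685 TPM in wild type. LHCA2 (AT3G61470) had 4309, 4149 and 3947 TPM in prp39a, 3642, 3990.0 and 3635 TPM in smd1b, and 3755, 3451 and 3879.8 TPM in wild type. LHCA4 (AT3G47470) had 7289, 7143 and 6235 TPM in prp39a, 5361, 6505 and 5748 TPM in smd1b, and 6206, 5471 and 6370.1 TPM in wild type. LHCA2 was above wild type in every prp39a library (log2 fold change 0.16, limma adjusted p = 0.307), and LHCA4 had the largest positive fold change of the 38 genes in prp39a against wild type but overlapped it (0.20, limma adjusted p = 0.346). LHCA3 (AT1G61520) averaged 4374 ± 256 TPM in prp39a, 3788 ± 236 TPM in smd1b and 3908 ± 174 TPM in wild type (SD, n = 3 each), and every prp39a library was above both other genotypes. LHCA1 had the smallest p of the group in smd1b against wild type (−0.11, limma adjusted p = 0.561).

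The minor antennae CP29, CP26 and CP24 link the photosystem II core to its main antenna. Of the CP29 genes, LHCB4.1 (AT5G01530) had 3027, 3109 and 2805 TPM in prp39a, 2922, 3167 and 2762 TPM in smd1b, and 2913, 2726 and 2906 TPM in wild type. LHCB4.2 (AT3G08940) had 2829, 2881 and 2629 TPM in prp39a, 2334, 2680.2 and 2436 TPM in smd1b, and 2539.9, 2344 and 2521 TPM in wild type. Only the LHCB4.2 libraries of prp39a stood clear of wild type (log2 fold change 0.17, limma adjusted p = 0.27).

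LHCB5 (AT4G10340), the CP26 gene, was the highest of the minor antennae with 4689.9, 4311 and 3910.0 TPM in prp39a, 3701, 4275 and 4102 TPM in smd1b, and 4347, 3651 and 4273 TPM in wild type. LHCB6 (AT1G15820), the CP24 gene, was the lowest with 2348, 2326 and 2312 TPM in prp39a, 2246, 2268 and 2096 TPM in smd1b, and 2651, 2136 and 2316 TPM in wild type. The genotypes overlap in LHCB5, and in LHCB6 both mutants lie within the wild-type range except for the lowest smd1b library.

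Among the electron carriers, plastocyanin is encoded by PETE1 and PETE2 (AT1G20340), and PETE1 made up 7.64% to 10.2% of their transcripts in the 9 libraries. PETE1 (AT1G76100) had 299, 352 and 293 TPM in prp39a, 273, 344 and 269.7 TPM in smd1b, and 287, 284 and 293 TPM in wild type. PETE2 had 3022, 3097 and 3014 TPM in prp39a, 3122, 3247 and 3149.5 TPM in smd1b, and 3465, 2952 and 3230.1 TPM in wild type. In PETE2 the mutants lie inside the wild-type range.

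FD2 (AT1G60950), the main leaf ferredoxin, had 1871, 1988 and 1769 TPM in prp39a, 1665, 1772 and 1518 TPM in smd1b, and 2105, 1777 and 1896 TPM in wild type. Every smd1b library was below every wild-type library, the closest pair being 1772 and 1777 TPM (log2 fold change −0.22 ± 0.097 SE, limma adjusted p = 0.208). PETC (AT4G03280), the Rieske protein of the cytochrome b6f complex, averaged 928 ± 54.4 TPM in prp39a, 842 ± 28.7 TPM in smd1b and 944 ± 103 TPM in wild type (SD, n = 3 each), with no test passed.

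FNR1 (AT5G66190), the other leaf reductase, had 658, 667 and 645 TPM in prp39a, 652, 743 and 684 TPM in smd1b, and 659, 589 and 650.2 TPM in wild type. All genotypes overlap. ATPG (AT4G32260), a stalk subunit of the ATP synthase, had 858, 802 and 759.8 TPM in prp39a, 875, 838 and 792 TPM in smd1b, and 864, 754 and 847 TPM in wild type. Its log2 fold changes lay between −0.05 and 0.02 in the 3 comparisons.

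Several of these proteins are encoded by paralog pairs, so the share of each gene in its pair was computed per library. Shares within 1 library do not depend on the scaling, but reads shared by similar copies are divided by an estimate. FNR1 made up 44.7%, 48.6% and 45.4% of the FNR transcripts in prp39a, 41.2%, 43.9% and 41.4% in smd1b, and 40.9%, 41.8% and 42.9% in wild type. The prp39a shares lie above all others. LHCB4.1 made up 51.7%, 51.9% and 51.6% of its pair in prp39a, 55.6%, 54.2% and 53.1% in smd1b, and 53.4%, 53.8% and 53.6% in wild type, the prp39a shares being the lowest. PSBQ1 made up 25.0%, 23.5% and 24.3% in prp39a, 30.1%, 25.6% and 27.0% in smd1b, and 28.0%, 25.1% and 25.4% in wild type, again lowest in prp39a, though close to the wild-type shares.

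In the other pairs the group means lay closer together. PSBO1 averaged 81.2 ± 0.98% in prp39a, 80.5 ± 0.26% in smd1b and 81.3 ± 0.33% in wild type, and the smd1b shares lay below wild type without overlap. PETE1 averaged 9.35 ± 0.73% in prp39a, 8.50 ± 0.93% in smd1b and 8.25 ± 0.57% in wild type, prp39a being above wild type. PSAE1 averaged 65.2 ± 0.73% in prp39a, 66.4 ± 0.19% in smd1b and 66.0 ± 0.53% in wild type, prp39a being below smd1b (SD, n = 3 each). PSAD1 and PSAH1 overlapped between all genotypes, with means of 59.2% to 60.1% and of 51.7% to 53.0%. No pair changed which gene was the more abundant one on average. With 3 libraries against 3, an exact permutation test cannot go below 0.10, and none was run on the shares.

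**Figure D5:**
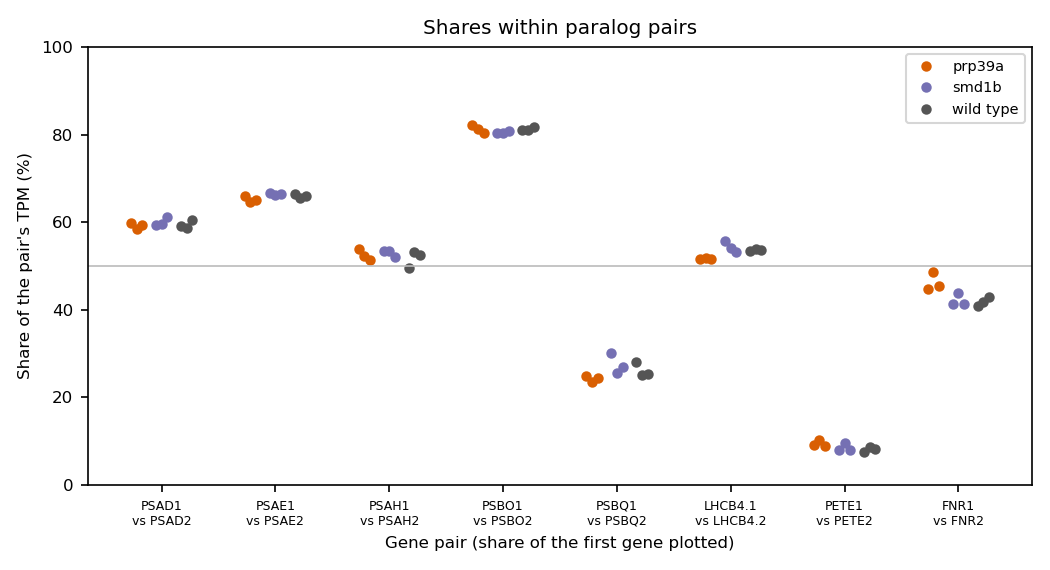
Share of the first-named gene in the summed TPM of its paralog pair (vertical axis, %) for 8 pairs, with 1 point per library. The FNR1 share is higher in prp39a (44.7% to 48.6%) than in smd1b and wild type (40.9% to 43.9%), and the PSAD1 and PSAH1 shares overlap between all genotypes.

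Because both mutated proteins belong to the splicing machinery, the isoform makeup of the genes was examined. The 38 genes had 73 isoforms, and 1 isoform held over 95% of the transcripts in 36 of 38 genes (94.7%), against 58.3% of all genes tested. Only 4 isoforms of FNR2 and LHCA3 had a mean share between 5% and 95% and could be tested. The tested isoforms of each gene hold nearly all of its transcripts, so they mirror each other and are not separate observations. None of these 4 passed the limma test on the log2 ratio of an isoform to the other isoforms of its gene, against 10.6% of all isoforms in prp39a against wild type, 2.17% in smd1b against wild type and 13.5% in prp39a against smd1b. Isoforms outside that range were not tested, and the shares of some rare ones differed between genotypes without overlap. In smd1b against wild type, AT4G03280.2 of PETC was higher (0.65% against 0.33% on average). In the same comparison AT1G52230_ID1 of PSAH2 (0.29% against 0.066%) and AT3G08940.1 of LHCB4.2 (0.77% against 0.46%) were also higher. So was AT4G28750_ID2 of PSAE1 (0.58% against 0.42%). AT5G64040.2 of PSAN went the other way (0.014% against 0.043%), at means of only 0.25 and 0.88 TPM. These are examples, and rare isoforms were not counted by direction.

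The minor FNR2 isoform, AT1G20020_P2 in the deposited table, made up 5.8%, 5.1% and 5.9% of FNR2 in prp39a, 9.5%, 9.6% and 7.5% in smd1b, and 7.7%, 6.4% and 6.1% in wild type. It was lowest in prp39a and did not pass in prp39a against smd1b (log2 ratio difference −0.70 ± 0.21 SE, limma adjusted p = 0.053). The main isoform AT1G20020_P1 averaged 93.4 ± 0.54% in prp39a, 90.7 ± 1.1% in smd1b and 93.0 ± 0.88% in wild type (SD, n = 3 each; limma adjusted p = 0.0711 in prp39a against smd1b). With a pseudocount of 1, both passed in prp39a against smd1b (limma adjusted p = 0.0298 and 0.0445). As the rise of one is nearly the fall of the other, these are not separate results. AT1G20020.2, an isoform too rare for the test, made up 0.82%, 0.79% and 0.82% of FNR2 in prp39a. Its share was 0.24%, 0.29% and 0.29% in smd1b, and 0.19%, 0.20% and 0.08% in wild type.

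LHCA3 was split between isoforms AT1G61520.3 and AT1G61520_P1. The share of AT1G61520.3 was 51.3%, 57.2% and 51.9% in prp39a, 48.8%, 51.1% and 45.1% in smd1b, and 47.7%, 49.7% and 51.2% in wild type. The prp39a shares were the highest, though next to those of wild type, and the limma adjusted p was 0.543 against wild type and 0.349 against smd1b. Isoforms that share most of their sequence are told apart by an estimate, and their values are uncertain.

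Other genes of photosynthesis were set beside these from lists of their own. The 9 LHCII genes encode the main antenna of photosystem II. Between prp39a and smd1b, 7 of them (77.8%, against 6.39% of all genes) passed as higher and none as lower, with a median log2 fold change of 0.48. The LHCII sum was 81419, 79393 and 70393 TPM in prp39a, 49650, 60591 and 51070 TPM in smd1b, and 61575, 53678 and 65867 TPM in wild type. The prp39a sums lie above all others. The count of 7 was 2 without prp39a replicate 1, prp39a replicate 2 or smd1b replicate 1, and 1 without smd1b replicate 3. It was also 2 with no TPM filter. LHCB1.4, which kept its call each time, had 7705, 6495 and 6584 TPM in prp39a, 3705, 4381 and 3736 TPM in smd1b, and 4489, 3870.2 and 4978 TPM in wild type. The LHCII copies are similar, so the division of reads among them is uncertain.

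Against wild type, LHCB1.4 was the only LHCII gene to pass in prp39a (by 0.64 ± 0.13 on the log2 scale, SE; limma adjusted p = 0.0286), and none of the 9 passed in smd1b. The only call among 12 Rubisco and Calvin cycle genes was the Rubisco small subunit gene RBCS1B, lower in prp39a (−0.70 ± 0.14 SE, limma adjusted p = 0.0304). The only call among 9 genes of chlorophyll synthesis and its regulators in prp39a was GLK2, a transcription factor that activates photosynthesis genes (0.37 ± 0.082 SE, limma adjusted p = 0.0403). Single calls are 11.1%, 8.33% and 11.1% of these lists, against 1.73% of all genes higher and 2.39% lower. These 3 calls were lost without prp39a replicate 1 or 2, smd1b replicate 3, or wild-type replicate 1 or 2, and that of LHCB1.4 also without prp39a replicate 3. The log2 fold changes were then 0.55 to 0.69 for LHCB1.4, −0.76 to −0.55 for RBCS1B and 0.33 to 0.37 for GLK2. The 3 calls were also lost with no TPM filter (limma adjusted p between 0.0541 and 0.16) and with a fit of the 6 libraries alone (0.0504 to 0.0766), and that of GLK2 with a prior without trend (0.0547).

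Of 23 further thylakoid genes (assembly factors, minor isoforms, kinases), none passed in prp39a against wild type. In smd1b against wild type, 2 of the 23 passed (8.7%, against 6.63% of all genes). CYTC6A, a cytochrome c6-like protein, was lower (−0.49 ± 0.075 SE, limma adjusted p = 0.00812) and kept its call under every alternative. LHCB4.3, a CP29 relative of low level, was higher (0.42 ± 0.098 SE, limma adjusted p = 0.0389), a call that was lost without any 1 of the smd1b or wild-type replicates or prp39a replicate 1 (log2 fold change 0.34 to 0.47). It was also lost with no TPM filter and with a fit of the 6 libraries alone (limma adjusted p = 0.0581 and 0.0522). In the same comparison PORC, a protochlorophyllide reductase, and GLK1, the paralog of GLK2, were higher (0.48 and 0.54, limma adjusted p = 0.0227 and 0.0409). They are 22.2% of the chlorophyll list, against 3.57% of all genes called higher. PORC was not called without smd1b replicate 2 or 3 or wild-type replicate 2 or 3 (0.41 to 0.51), and GLK1 not without any 1 of the smd1b or wild-type replicates (0.43 to 0.63). GLK1 was also not called with no TPM filter, with median-ratio size factors or with a prior without trend (limma adjusted p = 0.0636, 0.0678 and 0.0542).

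Between the mutants, 6 of the 23 thylakoid genes passed (26.1%, against 21.1% of all genes), a share near that of all genes. Of these, 2 were higher in prp39a (6.39% of all genes were) and 4 lower (14.7% of all genes were). FD1, the minor leaf ferredoxin, had 72.4, 64.0 and 79.4 TPM in prp39a, 169, 120.4 and 113 TPM in smd1b, and 158, 106 and 106 TPM in wild type. FD1 was thus lower in every prp39a library than in any other (log2 difference from smd1b −0.87 ± 0.19 SE, limma adjusted p = 0.0139). LHCB4.3 (−0.82, limma adjusted p = 0.00127) and the photosystem I assembly factor Y3IP1 (−0.43, limma adjusted p = 0.013) were also lower, and all 3 kept their calls under every alternative. The 2 higher genes, among them CYTC6A (0.30, limma adjusted p = 0.023), were both lost without prp39a replicate 1 or 2 or smd1b replicate 1. Of the 2, only 1 was called without smd1b replicate 2 or 3 or wild-type replicate 1 or 3, with no TPM filter, with TPM rescaled to all genes but the 38, with a fit of 6 libraries, or with a prior without trend.

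Of the 12 Rubisco and Calvin cycle genes, 4 were lower in prp39a than in smd1b (33.3%, against 14.7% of all genes). The count was 2 without prp39a replicate 2, smd1b replicate 1 or smd1b replicate 3, and 2 with median-ratio size factors, under which RBCS2B (limma adjusted p = 0.0661) and PRK (0.117) were not called. RBCS1B had 131, 124 and 140.4 TPM in prp39a, 320.4, 246 and 249 TPM in smd1b, and 263, 195 and 189.7 TPM in wild type, and its prp39a libraries lay below all others (log2 difference from smd1b −1.03 ± 0.14 SE, limma adjusted p = 0.00237). Of the 9 chlorophyll genes, 3 differed between prp39a and smd1b (33.3%, against 21.1% of all genes). GLK2 was higher in prp39a than in smd1b (0.49, limma adjusted p = 0.0053) and PORC lower (−0.58, limma adjusted p = 0.00483), both under every alternative. CHLH, a magnesium chelatase subunit, was also lower (−0.37, limma adjusted p = 0.0305), but not without any 1 of the prp39a replicates, smd1b replicate 1 or smd1b replicate 2 (−0.39 to −0.33). CHLH was also not called with median-ratio size factors (−0.27, limma adjusted p = 0.13). Of the 7 root markers tested, PYK10 was lower in prp39a than in smd1b (−0.51, limma adjusted p = 0.0275). That is 14.3% of the 7, a share near the 14.7% of all genes called lower. PYK10 was not called without prp39a replicate 1 or 2 or smd1b replicate 1 or 3 (−0.52 to −0.43) or with no TPM filter (limma adjusted p = 0.0859). SHR, a root patterning factor, was lower in smd1b than in wild type (−0.47, limma adjusted p = 0.038), which is 14.3% of the 7, against 3.06% of all genes. SHR was not called without smd1b replicate 2 or 3 or any 1 of the wild-type replicates (−0.53 to −0.39) or with no TPM filter (limma adjusted p = 0.0594).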

How the data were processed

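Polyadenylated RNA of whole seedlings was sequenced with a stranded kit, per the labels' protocols. The authors deposited TPM per transcript isoform, and the column names carry the quantifier kallisto. For its version and annotation, none is given in the sources used here. The submitters' processing notes list TAIR10, Trimmomatic, TopHat2, featureCounts and DESeq2 without roles. Each library sums to 1000000 TPM, so depth is unknown and no counting interval can be given. Of 15 value columns, 9 were matched to samples by name and 6 were not used.

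Isoform TPM were summed per gene. The 20585 genes that averaged 1 TPM or more were fitted with limma 3.58.1 in R 4.3.3 on log2(TPM + 0.5) over all 9 libraries (eBayes with trend, two-sided, Benjamini-Hochberg within a contrast at 0.05). The pseudocount understates changes of low genes. Isoforms with a mean share of 5% to 95% (21990) were tested on log2 of (isoform TPM + 0.5) over (other isoforms + 0.5). The fits were tested on simulated data, with changes larger than any seen in the members and with genes that varied independently. This does not bear on changes as small as those of the members. Reads shared by near-identical copies are divided by an estimate.

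The members and lists were chosen with earlier results of these data known. Values in every library are given for members that passed a test, the smallest p per role and mutant contrast, paralog pairs, and the highest and lowest gene per role; other lists give up to 4 called genes. Alternatives are in the closing section.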

Additional observations from a re-analysis of the deposited data

Results flagged for a closer look

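Of the 38 photosystem and electron transport genes, 3 differed between the mutants by a test of the difference itself. The log2 difference of prp39a from smd1b was −0.3014 for PSBS (limma adjusted p = 0.0342), −0.3132 for FNR2 (0.0281) and −0.3236 for ATPD (0.0384), and in each gene all 3 prp39a libraries lay below all 3 smd1b libraries.

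For 2 further genes every prp39a library lay above the wild-type mean and every smd1b library below it. The log2 difference of prp39a from smd1b was 0.2223 for PSAE2 (limma adjusted p = 0.0942) and 0.2072 for LHCA1 (0.17), so these differences did not pass the test.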

How the results depend on the processing

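In prp39a against wild type and in smd1b against wild type, no gene of the 38 passed under any of 18 alternatives, the lowest limma adjusted p being 0.169 and 0.134. In prp39a against smd1b, the 3 genes called lower were 1 with no TPM filter, 0 with median-ratio size factors, and between 0 and 3 with 1 library left out. No gene was called higher, except 1 (PSBR) with a filter of 5 TPM and 1 (PSBR) with a variance prior without trend. The tested isoforms of the 38 genes had no call, except 2 with a pseudocount of 1 in prp39a against smd1b. Both belong to FNR2 and mirror each other. Size factors moved the median log2 fold change of all genes in prp39a against smd1b to 0.01, in place of −0.08.

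With the replicate number as a block, 1 gene (FNR2) was called lower in prp39a than in smd1b, and PSBS and ATPD had limma adjusted p-values of 0.0702 and 0.0563. Over all genes the block gave 343 calls in prp39a against wild type, in place of 850, and 832 in smd1b against wild type, in place of 1365. Among the genes named from the other lists, the block ended the calls of LHCB1.4 and GLK2 in prp39a against wild type, of LHCB4.3, PORC and SHR in smd1b against wild type, and of CYTC6A, LHCB1.2 and PYK10 in prp39a against smd1b, with limma adjusted p between 0.0529 and 0.0954. With it, 3 LHCII genes and 0 of the 23 thylakoid genes were called higher in prp39a than in smd1b, in place of 7 and 2. Same-numbered libraries deviated together with correlations between −0.401 and 0.287 over all genes, so the numbers were not taken to pair the libraries. The causes of these changes were not tested. Each group has 3 libraries, the depth is unknown, and the median half-width of the unadjusted 95% intervals was 0.22 on the log2 scale. Smaller differences could not be resolved. Some larger ones did not pass after adjustment either, such as PSBR at 0.29 in prp39a against smd1b (limma adjusted p = 0.0707).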
